A study of Mus musculus with 16 samples.

Results

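Cytotoxic lymphocytes kill tumour cells with a small set of proteins, and the transcripts of 10 such genes were followed across 16 mouse melanoma RNA libraries. The genes were taken by symbol as a list of CD8 T cell and natural killer (NK) cell effectors: Cd8a, Cd8b1, Gzma, Gzmb, Gzmk, Prf1, Nkg7, Fasl, Ifng and Eomes. All 10 were found among the 46078 genes of the deposited count table, and all 10 were among the 16101 genes with enough counts to be tested.

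A cytotoxic T cell recognises a peptide on an MHC class I molecule through its T cell receptor and the CD8 co-receptor, while an NK cell reads the balance of activating and inhibitory receptors. Both then release granules in which perforin opens the target's membrane and granzymes, serine proteases, enter and cleave proteins of the target. The same cells can also display Fas ligand, which triggers death receptors, and secrete interferon gamma, which acts on tumour and immune cells at a distance. In tumours these genes are commonly read as a measure of how many such lymphocytes are present and how active they are.

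B16F10-GP melanoma cells had been implanted in matrigel (25%) on the flanks of female C57BL/6 mice aged 6 to 8 weeks. The 4 groups were tumours of mice given 5 Gy of X-rays once followed by QH-II-066 (combined treatment), 5 Gy alone, QH-II-066 alone, and untreated tumours, with 4 libraries in each. Radiation went to the right flank on day 10, and QH-II-066 was injected into the peritoneum at 10 mg/kg daily for 7 days from day 10. Mice given both were irradiated in the morning and injected in the evening. The control libraries carry the label untreated, whereas the treatment description speaks of a vehicle control. Tumours were grown on both flanks and only the right one was irradiated. The labels do not say which flank each library came from, nor that each library came from a separate mouse. Libraries of a group may therefore not be independent, and the spread between them may be partly technical. B16F10-GP is a single established line, and the hosts are immunocompetent.

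Whole tumour RNA was enriched for transcripts by capture and sequenced, giving 6994198 to 40799942 assigned read pairs per library, the lowest in combined replicate 4. Levels are given as CPM, counts scaled to a common library size by TMM, when 1 gene is compared between libraries, and as TPM, which also divides by gene length, when genes are compared with each other. A count of 0 would have allowed up to 0.0735 CPM in the deepest library and 0.429 CPM in the shallowest, from counting error alone. Melanocyte markers summed to 15078 to 25520 CPM across the 16 libraries, so tumour cell RNA was abundant in each. In 5 libraries, 5 Gy replicates 2 and 4 and combined replicates 2, 3 and 4, the 10 skin epithelium markers had a mean log2 CPM of at least 4.07, against -0.79 or lower in the other 11. These 5 are called libraries with skin transcripts, although the others were not free of them. Combined replicate 1, below that level, had the lowest marker sum of the combined group, 8.25 CPM. Sums were at most 4.37 CPM in QH-II-066 tumours and 0.902 CPM in untreated tumours. Comparisons of irradiated groups are therefore also given without those 5 libraries, which leaves 1 combined and 2 5 Gy libraries; the lone combined library is then assumed to vary like those of the other groups.

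Read per length, the granule membrane gene Nkg7 was the highest of the 10, at 28.5 ± 12 TPM (SD, n = 16 libraries). Gzmb, which encodes granzyme B, the protease that activates caspases, was next at 18.4 ± 10.3 TPM, and Nkg7 lay above it in 14 of 16 libraries. Gzmb exceeded Prf1, the perforin gene, in 16 of 16 libraries. Below them stood a band of 4 genes whose spreads overlapped: Prf1 at 8.17 ± 5.10 TPM, Gzma at 7.17 ± 2.99 TPM, Cd8b1 at 7.04 ± 3.55 TPM and Cd8a at 6.21 ± 3.01 TPM. Within that band each gene exceeded the one after it in only 8 to 10 of 16 libraries, so their order was not resolved. Ifng, the interferon gamma gene, averaged 4.83 ± 2.61 TPM, below Cd8a in 13 of 16 libraries and above Gzmk in 16 of 16. The lowest 3, with no resolved order, were Gzmk, encoding granzyme K, at 1.12 ± 0.507 TPM, Eomes, encoding the T-box transcription factor eomesodermin, at 1.07 ± 0.381 TPM, and Fasl, encoding Fas ligand, at 0.990 ± 0.581 TPM.

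Promoters are shown for the granule genes Gzmb, Prf1, Gzma and Nkg7, the members whose window holds the core letters read by Runx factors; in mouse CD8 T cells Runx3 works with the T-box factors T-bet and Eomes on effector genes. Each window runs from 250 bases before to 50 bases after the annotated start, 5′ to 3′ on the gene's strand, from RefSeq on GRCm38.p6. Capitals mark TGTGGT or its complement ACCACA (Runx), AGGTGTG (T-box) and TTCNNNGAA (STAT), searched on both strands. The Gzmb window is chr14:56262285-56262584 (minus strand), that of Prf1 chr10:61297586-61297885 (plus), that of Gzma chr13:113100932-113101231 (minus) and that of Nkg7 chr7:43436888-43437187 (plus).
Gzmb: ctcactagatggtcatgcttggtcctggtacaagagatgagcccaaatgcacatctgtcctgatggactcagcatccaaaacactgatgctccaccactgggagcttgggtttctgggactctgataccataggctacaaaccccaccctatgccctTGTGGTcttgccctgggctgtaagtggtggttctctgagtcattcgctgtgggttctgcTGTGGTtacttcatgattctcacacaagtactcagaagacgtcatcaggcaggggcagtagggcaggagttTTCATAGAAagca
Prf1: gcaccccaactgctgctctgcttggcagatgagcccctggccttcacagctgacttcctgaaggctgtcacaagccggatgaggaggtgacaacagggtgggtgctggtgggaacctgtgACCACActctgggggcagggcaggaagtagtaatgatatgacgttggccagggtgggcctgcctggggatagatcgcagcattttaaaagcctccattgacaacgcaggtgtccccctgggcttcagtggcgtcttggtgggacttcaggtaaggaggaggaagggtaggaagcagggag
Gzma: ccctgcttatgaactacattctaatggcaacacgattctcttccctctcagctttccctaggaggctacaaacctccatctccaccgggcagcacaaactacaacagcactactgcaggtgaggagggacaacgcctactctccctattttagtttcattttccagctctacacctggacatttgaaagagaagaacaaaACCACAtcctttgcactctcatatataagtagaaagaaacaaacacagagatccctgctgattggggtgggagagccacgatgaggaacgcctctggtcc
Nkg7: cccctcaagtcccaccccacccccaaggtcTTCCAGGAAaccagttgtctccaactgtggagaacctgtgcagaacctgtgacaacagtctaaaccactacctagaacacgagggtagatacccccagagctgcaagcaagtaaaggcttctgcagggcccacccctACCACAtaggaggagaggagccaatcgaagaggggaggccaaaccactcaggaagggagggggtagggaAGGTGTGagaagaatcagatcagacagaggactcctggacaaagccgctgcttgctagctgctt

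The Runx letters occurred in 4 of the 9 members with a RefSeq window, against 16.8% of all 32851 windows of that length. Positions count from 1 at the 5′ end of the window. Gzmb held the Runx letters at 158 to 163 and 217 to 222, Prf1 at 121 to 126, Gzma at 201 to 206 and Nkg7 at 168 to 173. The T-box letters occurred in 1 of 9 members, Nkg7 at 237 to 243, against 5.84% of all windows. The STAT letters occurred in 3 of 9, Gzmb, Nkg7 and Ifng, against 8.3% of all windows. No motif overlapped another in the 4 windows shown. Such matches describe letters only, and binding was not measured.

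The 2 chains of the CD8 co-receptor varied together. Cd8a (ENSMUSG00000053977; mm10 chr6:71373427-71379171) encodes the alpha chain, which some dendritic cells also carry, and Cd8b1 (ENSMUSG00000053044; chr6:71322836-71337477) the beta chain, which is more restricted to CD8 T cells. Cd8a stood at 9.22, 4.19, 4.74 and 7.74 CPM in combined tumours and at 9.18, 15.5, 3.81 and 6.78 CPM in 5 Gy tumours. It stood at 6.23, 6.81, 9.18 and 9.77 CPM in QH-II-066 tumours and at 4.71, 7.88, 5.12 and 9.39 CPM in untreated tumours. The highest and the lowest of the 16 values both fell in the 5 Gy group, and the ranges of all 4 groups overlapped. Cd8b1 was at 6.06, 1.33, 2.48 and 3.13 CPM in combined tumours, 4.8, 7.15, 2.4 and 2.78 CPM in 5 Gy tumours, 2.80, 2.87, 5.18 and 6.08 CPM in QH-II-066 tumours, and 2.10, 4.65, 2.59 and 5.80 CPM in untreated tumours. The Cd8b1 counts per Cd8a count ranged from 0.318 to 0.657 in combined, 0.410 to 0.628 in 5 Gy, 0.422 to 0.622 in QH-II-066 and 0.447 to 0.618 in untreated tumours, so neither chain was detected without the other in any library. Because whole tumours were profiled, fewer cells of a type and less RNA per cell cannot be told apart here or in any value that follows.

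**Figure D1:**
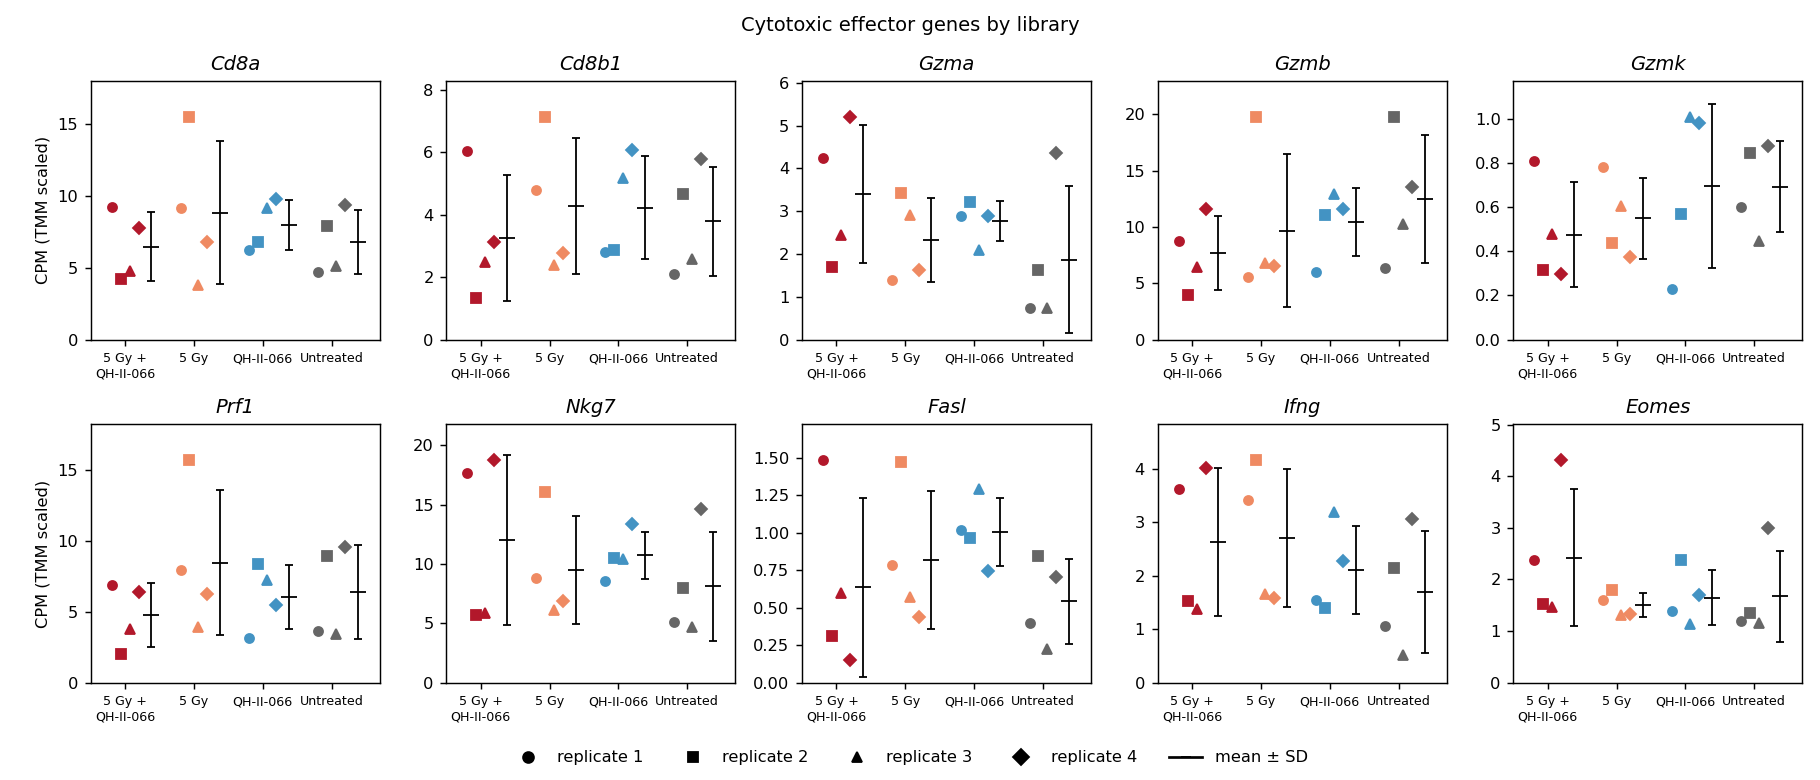
Each panel shows 1 gene, with its TMM-scaled CPM (linear axis from 0) in the 4 libraries of each group as points, the shape giving the replicate, and the group mean ± SD as a bar (n = 4). The ranges of all groups overlap in every panel, and 5 Gy replicate 2 is the highest of its group for 9 of the 10 genes.

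Among the granule proteins, Gzmb (ENSMUSG00000015437; chr14:56258856-56262260) had 8.71, 3.96, 6.42 and 11.6 CPM in combined tumours, and 5.59, 19.8, 6.79 and 6.54 CPM in 5 Gy tumours. In QH-II-066 tumours it had 6.03, 11.1, 12.9 and 11.6 CPM, and in untreated tumours 6.35, 19.7, 10.2 and 13.5 CPM. One 5 Gy library and one untreated library thus reached nearly the same maximum, and the other 3 5 Gy libraries lay between 5.59 and 6.79 CPM. Prf1 (ENSMUSG00000037202; chr10:61297836-61304263) was at 6.87, 2.04, 3.76 and 6.40 CPM in combined tumours and 7.97, 15.7, 3.92 and 6.27 CPM in 5 Gy tumours. It was at 3.16, 8.35, 7.24 and 5.47 CPM in QH-II-066 tumours and 3.64, 8.96, 3.42 and 9.53 CPM in untreated tumours. Its highest value came from 5 Gy replicate 2, the same library as for Gzmb, and its lowest from combined replicate 2.

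Gzma (ENSMUSG00000023132; chr13:113093825-113100979) encodes granzyme A, a tryptase that in mouse and human cells cleaves other targets than granzyme B. It had 4.25, 1.69, 2.45 and 5.21 CPM in combined tumours, 1.39, 3.42, 2.90 and 1.63 CPM in 5 Gy tumours, 2.90, 3.21, 2.10 and 2.89 CPM in QH-II-066 tumours, and 0.735, 1.62, 0.735 and 4.36 CPM in untreated tumours. The 3 lowest untreated libraries lay below every combined library, and the fourth untreated library lay above 3 of the 4. Gzmk (ENSMUSG00000042385; chr13:113171608-113225908), more typical of memory-like than of fully armed CD8 T cells, was scarce, with 2 to 37 counts per library. Its values were 0.811, 0.314, 0.477 and 0.298 CPM in combined tumours, 0.783, 0.439, 0.608 and 0.373 CPM in 5 Gy tumours, 0.231, 0.568, 1.01 and 0.982 CPM in QH-II-066 tumours, and 0.601, 0.846, 0.448 and 0.879 CPM in untreated tumours. The 2 counts behind combined replicate 4 allow 0.0361 to 1.08 CPM (95% exact Poisson interval, counting error only), a range that covers all 16 Gzmk values. Granzymes are paralogs, and how far reads were shared between copies was not measured, so their separate values are less certain. Esm1, on the opposite strand, lies within the Gzmk span without exon overlap.

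Nkg7 (ENSMUSG00000004612; chr7:43437073-43438246) encodes a granule membrane protein needed in mice for full degranulation. It stood at 17.7, 5.72, 5.91 and 18.8 CPM in combined tumours and 8.82, 16.1, 6.11 and 6.88 CPM in 5 Gy tumours. In QH-II-066 tumours it stood at 8.60, 10.5, 10.4 and 13.3 CPM, and in untreated tumours at 5.08, 7.96, 4.73 and 14.6 CPM. The combined libraries split into a pair at 17.7 and 18.8 CPM and a pair at 5.72 and 5.91 CPM, which span the values of all other groups except the 2 lowest untreated ones.

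Fasl (ENSMUSG00000000817; chr1:161780689-161788495) had the widest range of the members, 9.99-fold between its lowest and highest library, on only 1 to 55 counts. It was at 1.49, 0.314, 0.597 and 0.149 CPM in combined tumours, 0.783, 1.47, 0.574 and 0.441 CPM in 5 Gy tumours, 1.02, 0.968, 1.29 and 0.743 CPM in QH-II-066 tumours, and 0.401, 0.846, 0.224 and 0.704 CPM in untreated tumours. Of these, combined replicate 4 rests on 1 count, which allows 0.00377 to 0.829 CPM. Ifng (ENSMUSG00000055170; chr10:118441047-118445892) was at 3.62, 1.53, 1.37 and 4.02 CPM in combined tumours, 3.42, 4.17, 1.65 and 1.59 CPM in 5 Gy tumours, 1.55, 1.40, 3.19 and 2.28 CPM in QH-II-066 tumours, and 1.07, 2.15, 0.512 and 3.06 CPM in untreated tumours. Both irradiated groups had 2 libraries above every untreated library and 2 within the untreated range. Eomes (ENSMUSG00000032446; chr9:118478212-118486132) was the steadiest, with a 3.81-fold range. It had 2.38, 1.53, 1.46 and 4.32 CPM in combined tumours, 1.6, 1.79, 1.32 and 1.32 CPM in 5 Gy tumours, 1.38, 2.37, 1.13 and 1.70 CPM in QH-II-066 tumours, and 1.20, 1.35, 1.15 and 2.99 CPM in untreated tumours. Combined replicate 4 and untreated replicate 4 stood highest for this gene.

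Whether combined treatment altered the effector genes was asked first against untreated tumours. Gzma, Nkg7, Ifng, Eomes and Fasl had estimates above 0 and Gzmb, Gzmk, Prf1, Cd8b1 and Cd8a below 0, that is 5 of 10 above 0 beside 49.7% of all tested genes. Gzma averaged 3.40 ± 1.62 CPM in combined tumours and 1.86 ± 1.72 CPM in untreated tumours (SD, n = 4 each; log2 fold change 0.85 ± 0.53 SE, edgeR quasi-likelihood adjusted p = 0.377). Without untreated replicate 4, which alone of its group exceeded 1.62 CPM, the Gzma estimate was 1.70 ± 0.46 (edgeR adjusted p = 0.0945). It was then 1.18 ± 0.45 for 5 Gy (0.210) and 1.43 ± 0.46 for QH-II-066 (0.163) against untreated tumours. That library is singled out for its own Gzma value, so larger estimates follow from leaving it out. For combined against untreated tumours, 2127 of 16495 tested genes then had an edgeR adjusted p under 0.1, against 0 of 16101 with all libraries. In contrast to Gzma, Gzmb averaged 7.67 ± 3.26 CPM in combined and 12.5 ± 5.67 CPM in untreated tumours (-0.72 ± 0.45, edgeR adjusted p = 0.374). Nkg7 averaged 12 ± 7.17 CPM in combined and 8.10 ± 4.59 CPM in untreated tumours (0.56 ± 0.45, edgeR adjusted p = 0.481). The estimates of the other members were 0.61 ± 0.54 for Ifng, 0.50 ± 0.41 for Eomes, 0.33 ± 0.58 for Fasl, -0.48 ± 0.48 for Gzmk, -0.43 ± 0.49 for Prf1, -0.22 ± 0.48 for Cd8b1 and -0.07 ± 0.38 for Cd8a, with edgeR adjusted p from 0.482 to 0.928.

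None of the 10 members passed an adjusted p of 0.05 between combined and untreated tumours with edgeR, and 0% of the 16101 tested genes did. The count was also 0 at an unadjusted p under 0.05, which 16.2% of all tested genes reached, and 0 with DESeq2 and with limma-voom, which called 1.24% and 0% of tested genes. No member had every combined library on one side of every untreated library, a separation that 4.22% of tested genes showed. The 95% intervals on the log2 scale differed between members, from -0.88 to 0.74 for Cd8a, from -1.67 to 0.23 for Gzmb and from -0.29 to 1.98 for Gzma. Changes within a gene's own interval were not excluded. Without the 5 libraries with skin transcripts only combined replicate 1, high for most members, was left in its group, and Cd8a (0.45 ± 0.49), Cd8b1 (0.68 ± 0.61), Gzmk (0.23 ± 0.71) and Prf1 (0.11 ± 0.67) then had estimates above 0. In that fit Fasl was at 1.46 ± 0.59, Gzma at 1.19 ± 0.79, Nkg7 at 1.13 ± 0.50 and Ifng at 1.10 ± 0.75. Eomes was at 0.51 ± 0.57, and Gzmb alone stayed below 0, at -0.51 ± 0.55.

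**Figure D2:**
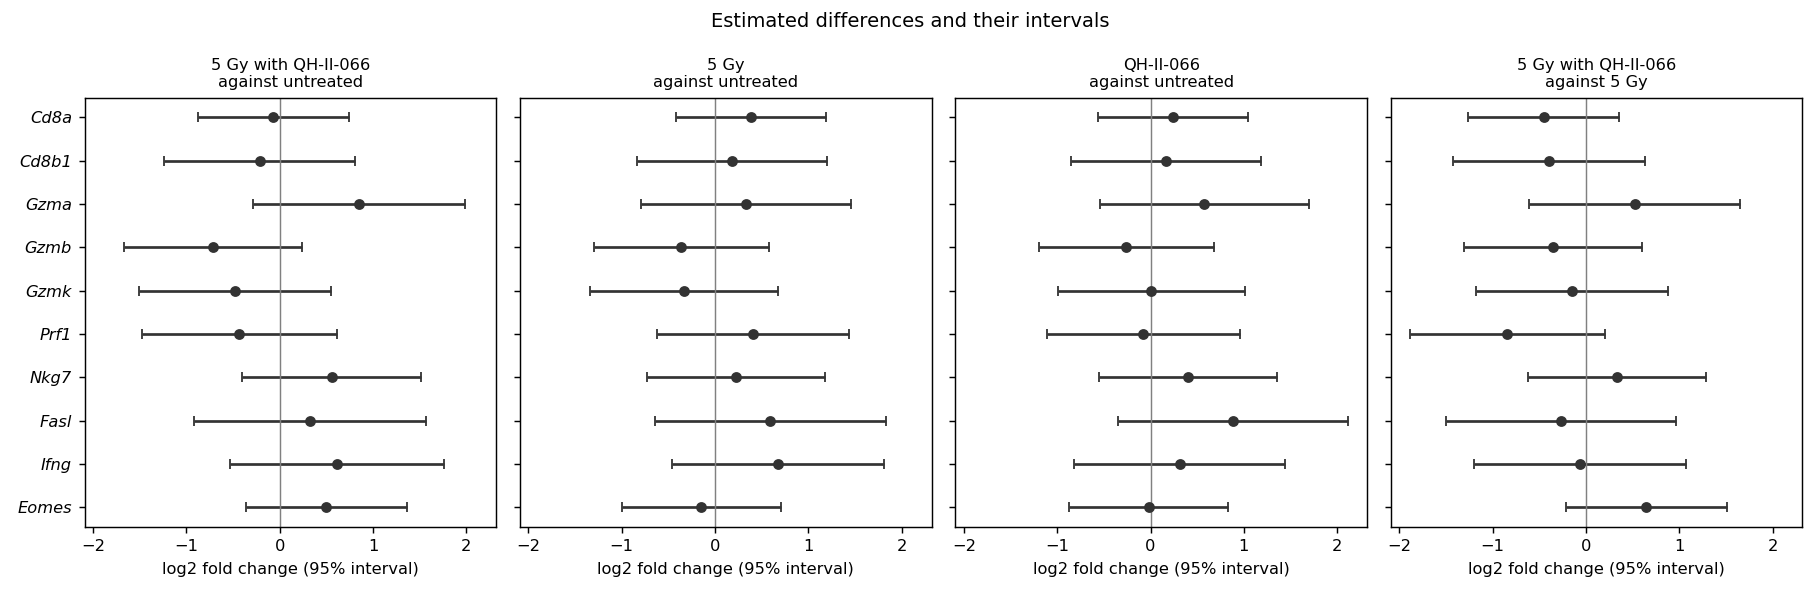
Points give the edgeR log2 fold change of each gene (rows) in 4 comparisons (panels) and bars the approximate 95% interval, with a line at 0. Every interval covers 0, and combined against untreated tumours runs from -0.72 for Gzmb to 0.85 for Gzma.

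After 5 Gy alone, 7 of 10 members had estimates above 0 against untreated tumours, beside 38.2% of all tested genes, with a median log2 fold change of 0.28 for the members and -0.08 for all tested genes. Ifng averaged 2.71 ± 1.29 CPM in 5 Gy tumours and 1.70 ± 1.14 CPM in untreated tumours (SD, n = 4 each; log2 fold change 0.67 ± 0.53, edgeR adjusted p = 0.613). Prf1 averaged 8.47 ± 5.10 CPM in 5 Gy and 6.39 ± 3.31 CPM in untreated tumours (0.41 ± 0.49, edgeR adjusted p = 0.728). The other members above 0 were Fasl at 0.59 ± 0.58, Cd8a at 0.38 ± 0.38, Gzma at 0.33 ± 0.53, Nkg7 at 0.23 ± 0.45 and Cd8b1 at 0.18 ± 0.48, while Gzmb (-0.36 ± 0.44), Gzmk (-0.33 ± 0.47) and Eomes (-0.15 ± 0.40) lay below 0. Their edgeR adjusted p ranged from 0.682 to 0.888.

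No member was called between 5 Gy and untreated tumours, where edgeR called 1.26% of tested genes, and none reached an unadjusted p under 0.05, as 15.1% of genes did. DESeq2 and limma-voom also called 0 of 10, beside 7.60% and 4.98% of all tested genes. None separated fully between the groups, against 9.11% of tested genes. Much of the direction rested on 5 Gy replicate 2, a library with skin transcripts in which 9 members were the highest of their group. Without that library the estimates were -0.03 for Cd8a, -0.18 for Cd8b1, -0.07 for Prf1 and -0.15 for Nkg7. Without all 5 libraries with skin transcripts, Cd8a (-0.06), Cd8b1 (-0.07), Prf1 (-0.11) and Nkg7 (-0.12) were below 0 as well, Gzmk was at 0.00552, and Ifng kept 0.58 ± 0.62. In that fit Gzmb was at -1.01 ± 0.44, against -0.36 with all libraries, and Eomes was at -0.20 ± 0.47. Gzma (0.21) and Fasl (0.32) stayed above 0. Of the 2 5 Gy libraries with skin transcripts, replicate 2 had 8 members among the top 4 of 16 libraries and replicate 4 had 0. The 10 skin markers summed to 0.569 to 2845 CPM in 5 Gy tumours and to 0.0769 to 0.902 CPM in untreated tumours, and their part in the result was not tested.

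In QH-II-066 tumours Gzma (2.78 ± 0.472 CPM), Nkg7 (10.7 ± 1.96 CPM) and Fasl (1.01 ± 0.226 CPM) had their smallest spread among the 4 groups (SD, n = 4). The same held for Cd8a, Cd8b1, Gzmb, Prf1 and Ifng, but not for Gzmk and Eomes. In untreated tumours Gzma averaged 1.86 ± 1.72, Nkg7 8.10 ± 4.59 and Fasl 0.544 ± 0.283 CPM. Fasl had the largest estimate of the drug comparison, 0.89 ± 0.58 (edgeR adjusted p = 0.553), then Gzma at 0.58 ± 0.53 (0.624) and Nkg7 at 0.40 ± 0.45 (0.680). Ifng (0.31 ± 0.53), Cd8a (0.24 ± 0.38), Cd8b1 (0.16 ± 0.48) and Gzmk (0.01 ± 0.47) also lay above 0, and Gzmb (-0.26 ± 0.44), Prf1 (-0.08 ± 0.49) and Eomes (-0.02 ± 0.40) below, with edgeR adjusted p from 0.774 to 0.999. Thus 7 of 10 members were above 0, beside 51.6% of tested genes. The median of the members was 0.20 on the log2 scale and that of all tested genes 0.01.

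Between QH-II-066 and untreated tumours edgeR called 0 of 10 members and 0% of tested genes, and no member reached an unadjusted p under 0.05, as 8.17% of genes did. No member separated fully, against 2.92% of tested genes. DESeq2 called 0 of 10, beside 0.0994% of tested genes. Only limma-voom with sample weights called any, namely Gzma at 1.40 ± 0.35 (limma adjusted p = 0.0159) and Nkg7 at 0.89 ± 0.29 (0.0338), in a fit that called 28.9% of all tested genes and 11.7% upwards. That fit gave untreated replicate 4, the untreated library highest for both genes, a weight of 0.314, the lowest of the 16. The intervals of the edgeR fit ran from -1.20 to 2.12 over the members.

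Adding the drug to radiation was asked by setting combined against 5 Gy tumours, a comparison that shares its libraries with those above. Prf1 averaged 4.77 ± 2.28 CPM in combined and 8.47 ± 5.10 CPM in 5 Gy tumours (SD, n = 4 each; log2 fold change -0.84 ± 0.49, edgeR adjusted p = 0.324). Eomes averaged 2.42 ± 1.33 CPM in combined and 1.51 ± 0.229 CPM in 5 Gy tumours (0.65 ± 0.41, edgeR adjusted p = 0.351). Gzma (0.52 ± 0.53) and Nkg7 (0.33 ± 0.45) were the others above 0, which makes 3 of 10 beside 44.3% of tested genes. Cd8a (-0.45 ± 0.38), Cd8b1 (-0.39 ± 0.48), Gzmb (-0.35 ± 0.45), Fasl (-0.27 ± 0.58), Gzmk (-0.15 ± 0.48) and Ifng (-0.06 ± 0.53) lay below 0, with edgeR adjusted p from 0.477 to 0.954.

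None of the 10 was called between combined and 5 Gy tumours by edgeR, DESeq2 or limma-voom, which called 0%, 0.764% and 0.429% of tested genes. None reached an unadjusted edgeR p under 0.05, beside 19.5% of tested genes, and none separated fully, beside 8.42%. Without 5 Gy replicate 2, Gzmb (0.27), Fasl (0.18) and Ifng (0.23) had estimates above 0. Between the 1 combined and 2 5 Gy libraries left without the 5 libraries with skin transcripts, 7 members turned to values above 0. They did so with the value of that lone combined library. Among them were Cd8a (0.51 ± 0.54), Cd8b1 (0.76 ± 0.68), Fasl (1.13 ± 0.68) and Prf1 (0.22 ± 0.73). The direction for these genes thus depended on which libraries were kept and is no result of the group.

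Adding radiation to the drug gave a like picture. Between combined and QH-II-066 tumours edgeR, DESeq2 and limma-voom called 0 of 10 members (0%, 0.298% and 0% of tested genes), 0 reached an unadjusted edgeR p under 0.05 (3.65% of genes) and 0 separated fully (1.91%). Of the members 4 had estimates above 0, beside 46.7% of tested genes. Those with the smallest p were Eomes at 0.52 ± 0.40 and Gzmb at -0.46 ± 0.45, both at an edgeR adjusted p of 0.9997. Eomes averaged 2.42 ± 1.33 CPM in combined and 1.65 ± 0.536 CPM in QH-II-066 tumours, and Gzmb averaged 7.67 ± 3.26 CPM in combined and 10.4 ± 3.03 CPM in QH-II-066 tumours. Without the libraries with skin transcripts the estimates were 0.53 ± 0.57 for Eomes and -0.26 ± 0.54 for Gzmb.

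The interaction asks whether the combined treatment differed from the sum of both single effects on the log2 scale. It was below 0 for 9 of 10 members, all but Eomes, while 54.5% of tested genes lay above 0, and the members' median was -0.27. Fasl (-1.15 ± 0.82, edgeR adjusted p = 0.882) and Cd8a (-0.69 ± 0.54, 0.913) had the smallest p. No member was called by edgeR, DESeq2 or limma-voom (0%, 0.366% and 3.09% of tested genes), and none reached an unadjusted edgeR p under 0.05 (6.96%). Without the libraries with skin transcripts the interaction was 0.24 for Fasl and 0.27 for Cd8a.

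Across the 4 groups, the ratio of the highest to the lowest group mean was 1.32 (Cd8b1) to 1.85 (Fasl). Differences between group means made up 8.84% (Cd8b1) to 28.6% (Gzma) of a member's variance in log2 CPM, with a median of 15.7%, against a median of 29.8% over all tested genes. Such a share arises also where groups do not differ, and it was not corrected for that.

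Single libraries were instead high or low for many members at once. The summed CPM of the 10 members was 61.1, 22.6, 29.7 and 61.6 in combined tumours, 44.3, 85.5, 30.1 and 34.6 in 5 Gy tumours, 33.9, 48.1, 53.7 and 54.9 in QH-II-066 tumours, and 25.9, 56.0, 29.2 and 64.9 in untreated tumours. All 4 groups overlapped, and they averaged 43.7 ± 20.5 CPM in combined, 48.6 ± 25.3 in 5 Gy, 47.6 ± 9.62 in QH-II-066 and 44.0 ± 19.4 CPM in untreated tumours (SD, n = 4 each). In 5 Gy replicate 2, 5 members reached their maximum over all 16 libraries and 8 were among the top 4. Untreated replicate 4 also had 8 members in the top 4, whereas untreated replicate 1 had 9 members and combined replicate 2 had 7 members in the bottom 4. In combined tumours the top value was split, with Cd8a, Cd8b1, Gzmk, Prf1 and Fasl highest in replicate 1 and Gzma, Gzmb, Nkg7, Ifng and Eomes highest in replicate 4, the shallowest library.

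**Figure D3:**
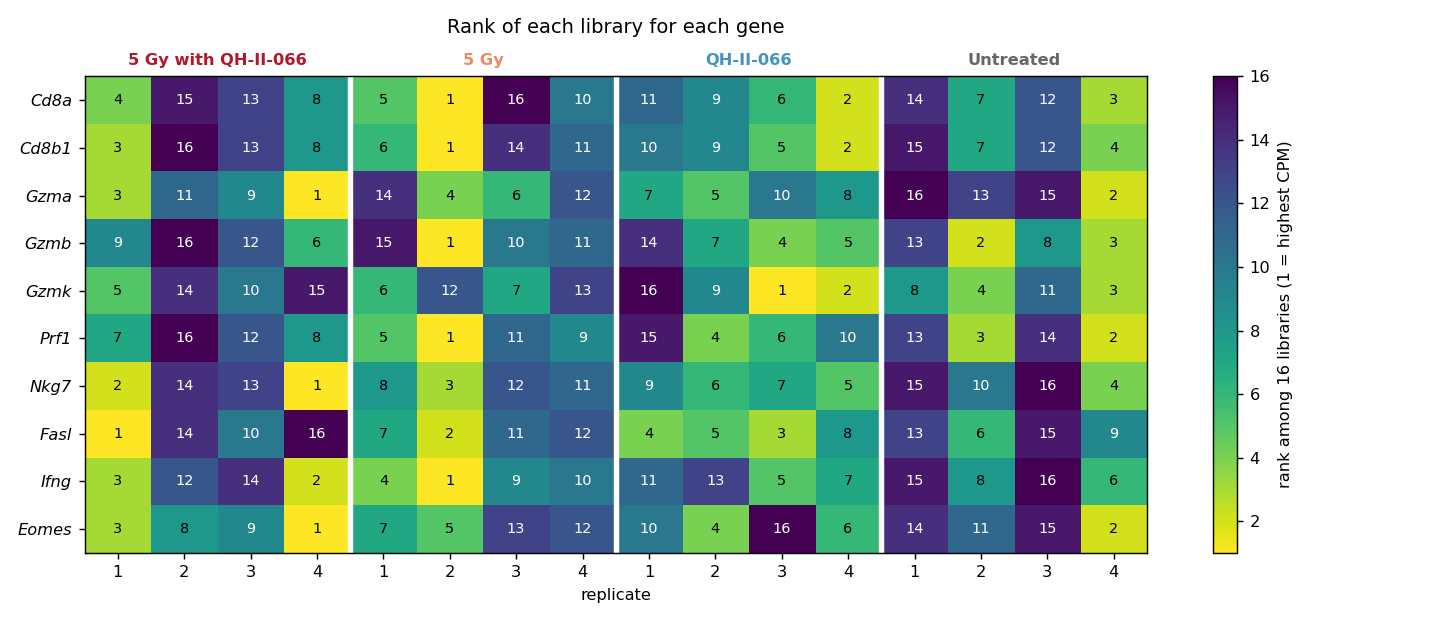
Cells give the rank of each library (columns, 4 per group) for each gene (rows), with 1 for the highest CPM of the 16 libraries. In 5 Gy replicate 2 and untreated replicate 4, 8 of 10 genes rank in the top 4, and in untreated replicate 1, 9 of 10 rank in the bottom 4.

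As a description over the 16 libraries, which share their depth and cell content, the log2 CPM of Cd8b1 followed the mean of the other 9 members most closely (Pearson r = 0.884). Nkg7 (0.878), Cd8a (0.869), Prf1 (0.830) and Ifng (0.792) came next, then Gzmb (0.637), Gzma (0.597), Fasl (0.522), Eomes (0.465) and Gzmk (0.400). Outside the list, the genes whose log2 CPM was most like the members' mean included Fpr2 (r = 0.962), Trac (0.959), Fcgr4 (0.957), Rnf19b (0.955), Sp110 (0.955), Pld4 (0.954), Il21r (0.953), Klra2 (0.952) and Sh3bp2 (0.951), each over 16 libraries. Trac encodes the constant region of the T cell receptor alpha chain, whereas Fcgr4 is expressed mainly by myeloid cells.

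The ratio of Gzma to Gzmb was singled out after its values were seen, among 5 count ratios computed, and has no test. Gzma counts per Gzmb count were 0.488, 0.426, 0.381 and 0.449 in combined tumours, 0.248, 0.173, 0.428 and 0.249 in 5 Gy tumours, 0.481, 0.290, 0.163 and 0.249 in QH-II-066 tumours, and 0.116, 0.0819, 0.0719 and 0.322 in untreated tumours. All 4 combined libraries lay above all 4 untreated libraries, while both single-treatment groups overlapped with each of them. How often the count ratios of other gene pairs separate these groups was not computed, so the separation has no background share beside it. The ratio averaged 0.436 ± 0.044 in combined, 0.274 ± 0.108 in 5 Gy, 0.296 ± 0.134 in QH-II-066 and 0.148 ± 0.118 in untreated tumours (SD, n = 4 each). Combined replicate 1 had the highest of the 16 ratios. It is the only combined library outside the 5 with skin transcripts, but its skin markers still summed to 8.25 CPM. Of the other ratios, Gzmb per Cd8a was 0.944 to 1.5 in combined and 1.35 to 2.5 in untreated tumours, and Nkg7 per Gzmb 0.921 to 2.03 in combined and 0.404 to 1.08 in untreated tumours, with overlap in both.

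**Figure D4:**
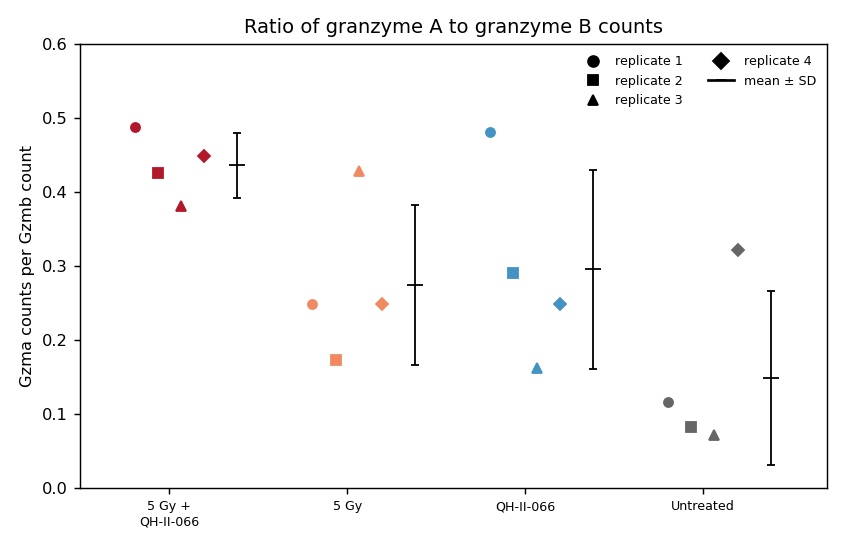
The vertical axis (linear, from 0) gives Gzma counts divided by Gzmb counts in each of the 4 libraries per group, with shapes for replicates and bars for mean ± SD (n = 4). The combined libraries sit between 0.381 and 0.488 and the untreated ones between 0.0719 and 0.322; the ratio was chosen after its values were seen.

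Genes that work with the members were read from 10 further lists, and none of their 109 tested genes was called by edgeR in any of the 6 comparisons. At an unadjusted edgeR p under 0.05, against untreated tumours, there were 5 for combined (beside 16.2% of all tested genes), 16 for 5 Gy (15.1%) and 2 for QH-II-066 (8.17%). There were 19 for combined against 5 Gy (19.5%), 1 for combined against QH-II-066 (3.65%) and 11 for the interaction (6.96%). DESeq2 called 5 higher for 5 Gy against untreated tumours, beside 7.60% of all tested genes in either direction, and 1 lower for combined against 5 Gy, beside 0.764%. With limma-voom 7 were higher for 5 Gy (4.98%), 27 higher and 9 lower for QH-II-066 against untreated tumours (28.9%), and 6 lower for the interaction (3.09%). Neither tool called any in the comparisons not named. The other granzymes shared a direction in the combined group, without passing the test. All 6 tested (Gzmc, Gzmd, Gzme, Gzmf, Gzmg and Gzmm among the 7 listed; Gzmn had too few counts) had estimates above 0 for combined against untreated tumours, with a median log2 fold change of 1.06 beside -0.00 for all tested genes and a smallest edgeR adjusted p of 0.316. The 6 were also above 0 for combined against 5 Gy tumours (median 0.98), but their medians were -0.08 for 5 Gy and 0.04 for QH-II-066 against untreated tumours. Gzmc averaged 6.00 ± 3.57 CPM in combined, 3.95 ± 1.99 in 5 Gy, 4.64 ± 2.81 in QH-II-066 and 4.62 ± 1.02 CPM in untreated tumours, and Gzmf 2.18 ± 0.767 in combined, 1.01 ± 0.577 in 5 Gy, 1.48 ± 1.6 in QH-II-066 and 0.992 ± 0.417 CPM in untreated tumours (SD, n = 4). Gzmc to Gzmg are close paralogs that could share reads, which was not measured, so they may not be separate observations.

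Lymphocyte receptor lists had estimates above 0 in 5 Gy tumours, without a gene called by edgeR. For 5 Gy against untreated tumours 14 of 14 tested NK receptor genes (median log2 fold change 0.58), 12 of 12 T cell receptor complex genes (0.40) and 10 of 10 cytokine receptor genes of effector cells (0.58) had estimates above 0, beside 38.2% of all tested genes, with smallest edgeR adjusted p of 0.0584, 0.228 and 0.313. For combined against untreated tumours the same lists had 12 of 14, 9 of 12 and 6 of 10 above 0, and for QH-II-066 13 of 14, 9 of 12 and 6 of 10. All genes of a list were read in the same libraries, so such counts are not counts of separate observations. How far they rest on single libraries, such as 5 Gy replicate 2, is not reported here. Cd3g, a T cell receptor signalling chain, averaged 6.38 ± 3.51 CPM in combined, 5.90 ± 3.38 in 5 Gy, 5.67 ± 1.002 in QH-II-066 and 4.57 ± 1.56 CPM in untreated tumours, and the kinase Lck 9.22 ± 2.14 in combined, 10.4 ± 2.79 in 5 Gy, 9.56 ± 1.17 in QH-II-066 and 9.70 ± 2.17 CPM in untreated tumours. The receptors that led the NK list, Fcgr3 (47.0 ± 8.49 in combined, 70.5 ± 20.9 in 5 Gy, 49.3 ± 12 in QH-II-066 and 35.4 ± 10.4 CPM in untreated tumours) and the adaptor Tyrobp (59.7 ± 19.7 in combined, 70.2 ± 21.7 in 5 Gy, 67.8 ± 13.7 in QH-II-066 and 47.4 ± 24.7 CPM in untreated tumours), are shared with macrophages. The 4 macrophage markers summed to 136 to 275 CPM in combined, 268 to 511 in 5 Gy, 110 to 244 in QH-II-066 and 108 to 172 CPM in untreated tumours, and their part in the list was not tested. Of the cytokine receptors, Il2rg, the shared gamma chain, averaged 11.8 ± 3.51 in combined, 15 ± 4.55 in 5 Gy, 11 ± 2.98 in QH-II-066 and 9.26 ± 4.29 CPM in untreated tumours, and Il12rb1 19.8 ± 8.37 in combined, 27.7 ± 15.3 in 5 Gy, 24.4 ± 6.75 in QH-II-066 and 21.8 ± 11.6 CPM in untreated tumours.

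The remaining lists of the pathway were mixed in direction. Granule content and processing genes had 6 of 8 estimates above 0 for combined, 7 of 8 for 5 Gy and 6 of 8 for QH-II-066 against untreated tumours. Cathepsin C (Ctsc), which trims granzyme precursors, averaged 172 ± 31.5 CPM in combined, 274 ± 97.5 in 5 Gy, 183 ± 39.0 in QH-II-066 and 157 ± 29.4 CPM in untreated tumours, and the lysosomal membrane gene Lamp1 905 ± 85.6 in combined, 778 ± 82.8 in 5 Gy, 922 ± 124 in QH-II-066 and 818 ± 62.0 CPM in untreated tumours. Of the degranulation machinery, 6 of 7 genes were tested, and 3 of them were above 0 for combined, 2 for 5 Gy and 3 for QH-II-066. Rab27a, which docks granules but also melanosomes, averaged 319 ± 80.3 in combined, 299 ± 42.4 in 5 Gy, 288 ± 14.1 in QH-II-066 and 369 ± 65.0 CPM in untreated tumours, and Vamp8 367 ± 172 in combined, 171 ± 48.5 in 5 Gy, 312 ± 106 in QH-II-066 and 215 ± 98.7 CPM in untreated tumours. Of the CD8 and NK transcription factors, 7 of 12 were above 0 for combined, 7 for 5 Gy and 9 for QH-II-066, and the most abundant, Id2 (129 ± 4.6 in combined, 116 ± 8.18 in 5 Gy, 134 ± 23.4 in QH-II-066 and 122 ± 17.7 CPM in untreated tumours) and Bhlhe40 (243 ± 23.4 in combined, 260 ± 57.6 in 5 Gy, 234 ± 12.1 in QH-II-066 and 266 ± 30.4 CPM in untreated tumours), are not limited to lymphocytes.

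Chemokine and surface genes of effector cells had 10 of 15 above 0 for combined, 13 for 5 Gy and 10 for QH-II-066 against untreated tumours. The co-stimulatory receptor Tnfrsf9 averaged 16.6 ± 6.10 CPM in combined, 19.5 ± 6.83 in 5 Gy, 15.4 ± 4.79 in QH-II-066 and 18.6 ± 5.02 CPM in untreated tumours, and Slamf7 13.1 ± 3.79 in combined, 19.8 ± 6.21 in 5 Gy, 16.5 ± 4.87 in QH-II-066 and 12.6 ± 4.71 CPM in untreated tumours. On the receiving side of Fas ligand, death receptor signalling genes had 2 of 9 above 0 for combined, 3 for 5 Gy and 2 for QH-II-066, with Casp8, the initiator caspase, at 64.9 ± 24.8 in combined, 95.4 ± 12.2 in 5 Gy, 74.9 ± 21 in QH-II-066 and 97.6 ± 19.4 CPM in untreated tumours and its inhibitor Cflar at 115 ± 5.50 in combined, 147 ± 22.1 in 5 Gy, 129 ± 28.0 in QH-II-066 and 158 ± 35.9 CPM in untreated tumours. Downstream of Ifng, receptor and early target genes had 7 of 17 above 0 for combined (median log2 fold change -0.08), 10 for 5 Gy (0.04) and 13 for QH-II-066 (0.13). The interferon-inducible GTPases Gbp2 (429 ± 118 in combined, 546 ± 251 in 5 Gy, 509 ± 140 in QH-II-066 and 466 ± 219 CPM in untreated tumours) and Igtp (539 ± 226 in combined, 527 ± 219 in 5 Gy, 652 ± 152 in QH-II-066 and 541 ± 287 CPM in untreated tumours) led that list, and their group means differed by less than the SD within groups.

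The lymphocytes that could carry the members were present at low transcript levels. The 6 T cell markers, detected in all 16 libraries, summed to 14.5 to 38 CPM in combined, 13.9 to 43.0 in 5 Gy, 18.7 to 29.2 in QH-II-066 and 11.3 to 27.8 CPM in untreated tumours. The 6 NK cell markers summed to 6.47 to 19.1 in combined, 11.8 to 20.8 in 5 Gy, 12.5 to 15.8 in QH-II-066 and 5.11 to 19.9 CPM in untreated tumours, with Ncr1 and Klra8 each at 0 in 1 library. Both cell types can transcribe granzymes, Prf1 and Nkg7, and bulk counts do not assign a read to either.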

How the data were processed

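RNA from B16F10-GP tumours was profiled in 16 libraries, 4 per group. Per the submitters' processing notes reads were aligned to mm10 with STAR 2.4.1a, and per the file headers the authors counted read pairs per gene with featureCounts 1.6.0, without a strand option. The deposited values are raw counts of 46078 genes, beside deposited gene lengths in bases. From these counts CPM (TMM) and TPM were computed here. Fits used edgeR 4.0.16 in R 4.3.3: filterByExpr by group, glmQLFit (robust) on all 16 libraries as group means, glmQLFTest, two-sided, Benjamini-Hochberg over 16101 genes, threshold 0.05; SE is the log2 fold change over the square root of F. Alternatives used DESeq2 1.42.0, limma 3.58.1 (voom with sample weights), other scalings, filters and sample sets. Totals of 6994198 to 40799942 counts set the precision, and intervals on counts cover counting error only. No 2 libraries of a group agreed within sampling noise (chi-square per degree of freedom of at least 18.1).

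The members, lists, motifs and named genes were chosen with earlier results of these data known. All 10 members are named in the comparisons against untreated tumours and of combined against 5 Gy, and the 2 with the smallest p in the other 2; from each list the 2 genes highest in mean CPM; and the 10 genes most like the members' mean, of which 1 is not reported here. Deviations of same-numbered libraries from their group means correlated at r from -0.426 to 0.484, over 0.1 in 12 of 24 pairs. Differently numbered libraries were not compared, so shared deviation is not excluded. Replicate numbers were not used as pairs in the main fit. Vamp7 and Cd244 were not matched by these symbols in the table. Cd244a was matched and was tested among the NK receptors.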

Additional observations from a re-analysis of the deposited data

Results flagged for a closer look

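In 44 groups of 4 libraries, 10 members and their mean in each of 4 groups, the highest and lowest library were checked against the other 3, and 2 stood apart by more than Dixon's critical value of 0.829. Gzmb in 5 Gy replicate 2, at 19.8 CPM, stood above the other 5 Gy libraries at 5.59 to 6.79 CPM. That library has skin transcripts and was the highest of its group for 9 of 10 members. Eomes in untreated replicate 4, at 2.99 CPM, stood above the other untreated libraries at 1.15 to 1.35 CPM. Chance flags about 1 in 20 groups.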

How the results depend on the processing

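Over all settings tried, edgeR, DESeq2 and limma-voom called 0 of 10 members in 5 comparisons, and between QH-II-066 and untreated tumours limma-voom with sample weights called 2 (Gzma and Nkg7). Leaving out each of the 16 libraries in turn left 0 members called in all 6 comparisons. With the replicate number as a block 0 members were called, and 154 genes in all between 5 Gy and untreated tumours, against 203 without it; the block turned Gzmk (-0.00802), Prf1 (0.023) and Eomes (0.0501) in QH-II-066 against untreated tumours. The labels give same-numbered libraries nothing in common but the number.

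Without the libraries with skin transcripts, log2 fold changes turned to 0.45 for Cd8a, 0.68 for Cd8b1, 0.23 for Gzmk and 0.11 for Prf1 (combined against untreated), to -0.0632 for Cd8a, -0.0748 for Cd8b1, 0.00552 for Gzmk, -0.11 for Prf1 and -0.12 for Nkg7 (5 Gy against untreated), to 0.51 for Cd8a, 0.76 for Cd8b1, 0.50 for Gzmb, 0.23 for Gzmk, 0.22 for Prf1, 1.13 for Fasl and 0.52 for Ifng (combined against 5 Gy), and to 0.24 for Fasl and 0.27 for Cd8a (interaction). Fewer libraries were in that fit, and the cause was not tested. With limma-voom, Eomes turned to 0.13 in 5 Gy and 0.46 in QH-II-066 tumours against untreated ones and to -0.17 for combined against QH-II-066, Prf1 to 0.21 in QH-II-066 against untreated tumours and Nkg7 to -0.27 (combined against 5 Gy); the cause was not tested.

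Leave-one-out ranges of Gzma against untreated tumours were 0.58 to 1.70 for combined, 0.0601 to 1.18 for 5 Gy and 0.31 to 1.43 for QH-II-066, the highest each without untreated replicate 4. Ranges that crossed 0 were, for combined against untreated, -0.31 to 0.12 (Cd8a), -0.74 to 0.0617 (Cd8b1) and -0.49 to 0.61 (Fasl, below 0 without combined replicate 1); for 5 Gy against untreated, -0.0338 to 0.63 (Cd8a), -0.18 to 0.46 (Cd8b1), -0.0717 to 0.66 (Prf1), -0.15 to 0.67 (Nkg7) and -0.29 to 0.28 (Eomes, above 0 without untreated replicate 4); for QH-II-066 against untreated, -0.0678 to 0.44 (Cd8b1), -0.48 to 0.0516 (Gzmb), -0.21 to 0.30 (Gzmk), -0.28 to 0.18 (Prf1) and -0.25 to 0.42 (Eomes); for combined against 5 Gy, -0.60 to 0.27 (Gzmb), -0.55 to 0.0617 (Gzmk), -1.08 to 0.18 (Fasl) and -0.31 to 0.23 (Ifng). Counts over all genes moved more: 5 Gy against untreated gave 1224 with DESeq2, 802 with limma-voom, 22 without the libraries with skin transcripts and 0 to 739 leaving out 1 library. Depth limits Fasl and Gzmk most, with 1 and 2 counts in combined replicate 4.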

Other observations

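Other cell types can carry some of the members' transcripts, and their markers were read as values only. The 5 mast cell markers, cells that in mice can also transcribe Gzmb, summed to 6.27 to 28.0 CPM in combined, 4.95 to 41.3 in 5 Gy, 5.80 to 20.6 in QH-II-066 and 0.320 to 6.61 CPM in untreated tumours; Fcer1a was at 0 in 3 libraries and Mcpt4 in 1. The 5 markers of conventional dendritic cells, a subset of which carries Cd8a, summed to 7.52 to 17.6 in combined, 7.90 to 19.9 in 5 Gy, 9.65 to 18 in QH-II-066 and 6.04 to 16.3 CPM in untreated tumours, overlapping in all 4 groups. The 4 neutrophil markers summed to 6.06 to 75.7 in combined, 9.33 to 12.7 in 5 Gy, 3.79 to 11.3 in QH-II-066 and 3.26 to 7.42 CPM in untreated tumours, with Ly6g at 0 in 12 libraries. These markers were not alike. In combined tumours S100a8 averaged 9.01 ± 16.5 and S100a9 10.7 ± 17.8 CPM, against 1.04 ± 0.530 and 1.58 ± 1.22 CPM in 5 Gy tumours. Csf3r averaged 5.29 ± 1.48 CPM in combined and 8.05 ± 2.69 CPM in 5 Gy tumours. The part of these cells in the members' counts was not tested.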
